A study of Mus musculus with 8 samples.

Results

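Intestinal epithelial cells from mice with both copies of IKKα in the AA form (IKKa-AA) were set against those of wild-type mice (WT), with 2 arrays in each group. These 4 arrays, chosen by genotype label alone, are part of the 8 arrays of the series. The other 4 came from mice whose gut epithelium held β-catenin stabilised through tamoxifen, 2 of them together with the IKKα AA alleles (bCATca_IKKa-AA, called double mutants here) and 2 with normal IKKα (bCATca). All mice, WT included, mixed 3 strain backgrounds (C57BL/6, 129Sv and FVB) and received tamoxifen by gavage for 5 days, and their cells were collected 15 days after the first dose. No label names the promoter that drives the recombinase, the age or sex of a mouse, or whether replicates of a group were separate animals. P-values therefore measure the spread between these samples, which may be technical in the groups other than WT. The WT arrays differed in sex-linked transcripts, as given below, so they were not repeats of the same animal. Total RNA, 200 ng per sample, was labelled and hybridised to Affymetrix arrays of 22690 probe sets. Each of 12393 genes was read from its brightest probe set with a single gene symbol, and all values below are log2 intensities or differences of them. Intensities of different genes are not compared, since probes differ in brightness, and precision is limited by the small number of arrays.

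IKKα is a catalytic subunit of the IκB kinase complex. With its partner IKKβ it serves the canonical NF-κB route, in which inhibitors of the IκB family are phosphorylated and degraded, and it is the kinase that drives processing of the Nfkb2 product p100 in the non-canonical route downstream of NIK and receptors such as the lymphotoxin β receptor. In the AA allele the serines of its activation loop are replaced by alanines, so that the kinase is present but cannot be activated. It is a knock-in, carried by cells of every tissue and not by the epithelium alone. Type I and type II interferons act through a separate route, in which STAT and IRF factors bind interferon-stimulated response elements and gamma-activated sites.

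Promoters of both routes show what the measured genes have in front of them. Windows of 300 bases (250 before and 50 after the transcription start, RefSeq, build GRCm38.p6) were searched on both strands. The core of the interferon-stimulated response element, searched as GAAA, any 2 bases and GAAA again, was found in 15 of the 33 measured interferon response genes that had a window (45.5%), and in 1079 of the 27025 genes of the whole table (3.99%). Of the 15, the 4 whose difference between IKKa-AA and WT had an unadjusted p under 0.05 are printed here, each 5′ to 3′ on the strand of its gene, with the matches in capitals on whichever strand they lie. They are Rsad2 (chr12:26456403-26456702, minus strand), Stat2 (chr10:128270248-128270547, plus strand), Gbp3 (chr3:142559794-142560093, plus strand) and Bst2 (chr8:71537423-71537722, minus strand). In Gbp3 and Bst2 there were 2 overlapping matches, which form 1 run of capitals. Other listed genes under that p, such as Oasl2, Sp100 and Tap1, had a window without a match.
Rsad2: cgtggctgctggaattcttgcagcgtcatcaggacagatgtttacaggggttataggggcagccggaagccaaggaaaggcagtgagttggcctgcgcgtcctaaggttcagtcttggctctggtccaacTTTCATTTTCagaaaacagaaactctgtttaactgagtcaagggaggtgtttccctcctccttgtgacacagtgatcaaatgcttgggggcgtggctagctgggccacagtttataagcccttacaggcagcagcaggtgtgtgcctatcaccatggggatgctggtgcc
Stat2: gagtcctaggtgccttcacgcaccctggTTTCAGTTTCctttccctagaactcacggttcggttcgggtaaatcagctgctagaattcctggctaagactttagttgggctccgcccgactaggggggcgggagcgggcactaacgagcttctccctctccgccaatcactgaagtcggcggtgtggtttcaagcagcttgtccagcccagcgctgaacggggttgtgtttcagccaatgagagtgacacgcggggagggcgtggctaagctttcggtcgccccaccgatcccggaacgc
Gbp3: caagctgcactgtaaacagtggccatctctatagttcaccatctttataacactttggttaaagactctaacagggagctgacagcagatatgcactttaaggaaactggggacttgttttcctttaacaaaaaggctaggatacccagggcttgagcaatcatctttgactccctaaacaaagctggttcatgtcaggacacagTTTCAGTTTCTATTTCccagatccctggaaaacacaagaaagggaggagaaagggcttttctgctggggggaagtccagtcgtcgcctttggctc
Bst2: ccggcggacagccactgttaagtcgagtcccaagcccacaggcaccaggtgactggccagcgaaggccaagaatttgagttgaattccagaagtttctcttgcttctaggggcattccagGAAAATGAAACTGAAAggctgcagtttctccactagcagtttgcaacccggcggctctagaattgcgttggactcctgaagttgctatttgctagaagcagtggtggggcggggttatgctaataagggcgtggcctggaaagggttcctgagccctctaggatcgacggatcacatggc

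A κB site of 10 bases, searched as GGGA, any base and TTTCC, was found in 6 of the 30 NF-κB target genes with a window (20%), against 0.466% of all genes in the table. A shorter form, GGGNNTTCC, was found in 5 of the 30 (16.7%), against 6.58% of all genes. Of the 6 with the longer form, Nfkb2 (chr19:46305445-46305744, plus strand) and Nfkbia (chr12:55492598-55492897, minus strand) are printed because they encode members of the NF-κB pathway itself. A match is a description of these letters only.
Nfkb2: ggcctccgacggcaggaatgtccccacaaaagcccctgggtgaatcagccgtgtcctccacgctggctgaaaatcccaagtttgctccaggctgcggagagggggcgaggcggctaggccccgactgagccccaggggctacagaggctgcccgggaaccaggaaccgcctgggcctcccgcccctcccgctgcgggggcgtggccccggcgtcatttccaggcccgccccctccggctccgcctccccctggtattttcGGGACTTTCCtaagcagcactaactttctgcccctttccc
Nfkbia: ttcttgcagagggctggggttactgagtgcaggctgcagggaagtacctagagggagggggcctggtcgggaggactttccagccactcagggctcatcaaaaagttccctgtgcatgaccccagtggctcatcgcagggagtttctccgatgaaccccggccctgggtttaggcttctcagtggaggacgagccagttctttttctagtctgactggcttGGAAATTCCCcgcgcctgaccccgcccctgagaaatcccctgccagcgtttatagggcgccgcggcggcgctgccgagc

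The labelled cell type was borne out by its markers. The 18 epithelial markers had a median level of 11.72 and 11.64 on the IKKa-AA arrays and of 11.70 and 11.64 on the WT arrays. Epcam, an epithelial adhesion protein, stood at 12.63 and 12.48 in IKKa-AA and at 12.51 and 12.54 in WT, and Vil1, an actin-bundling protein of the microvillus, at 12.18 and 12.17 in IKKa-AA and at 12.13 and 12.21 in WT. Other cells were present too. Markers of T cells and intraepithelial lymphocytes had a log2 summed intensity of 11.91 and 13.66 in IKKa-AA and of 13.93 and 13.50 in WT, and markers of B and plasma cells one of 9.83 and 12.12 in IKKa-AA and of 10.99 and 11.26 in WT. IKKa-AA replicate 1 thus read lowest of the 4 arrays for both. The neutrophil genes S100a8, S100a9 and Elane, the endothelial gene Pecam1 and the muscle gene Myh11 all read below 4.03 on these 4 arrays, S100a8 between 3.26 and 3.42. Of the whole lists, 10 of 14 neutrophil genes, 9 of 18 endothelial genes and 10 of 25 stroma and muscle genes had both group means at or below that level. Others read above it, such as the endothelial gene Egfl7 at 6.86 and 6.89 in IKKa-AA and 7.47 and 7.32 in WT, and Des, the muscle protein desmin, at 5.47 and 5.66 in IKKa-AA and 5.89 and 6.15 in WT. The level of 4.03, called background below, is the highest reading of sex-linked transcripts on arrays where they are absent.

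Which transcripts stood out between the genotypes was asked with limma over all 8 arrays, with p-values adjusted over all 12393 genes (Benjamini-Hochberg). The IKKa-AA pair was wider apart than the WT pair. Of all genes, 392 (3.16%) differed by more than 2-fold between the IKKa-AA arrays, and 94 (0.76%) between the WT arrays. IKKa-AA replicate 1 differed by that much from WT replicate 1 at 550 genes and from WT replicate 2 at 560, and IKKa-AA replicate 2 at 151 and 86. From the double mutant arrays IKKa-AA replicate 1 differed at 185 and 161 genes, and IKKa-AA replicate 2 at 427 and 413. By this count replicate 1 was nearer to the double mutants, and replicate 2 nearer to WT, than either was to the other. The cause was not tested. WT replicate 1 read Xist high and the Y-linked genes at background, and the other 7 arrays the reverse, so that sex differed within WT.

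1 gene fell and none rose. Amph encodes amphiphysin, a protein that binds curved membranes during endocytosis. It read 2.24 and 2.60 in IKKa-AA and 4.54 and 4.72 in WT, a difference of -2.21 (SE 0.17, adjusted p = 0.0108), with both IKKa-AA arrays below both WT arrays. Its IKKa-AA readings were at background, so the size of the fall was not determined. The call ended in a fit of the IKKa-AA and WT arrays alone (adjusted p = 0.259), without any single array of the other 4 (0.0511 to 0.0711) and with 16 added to each intensity before the log (0.153), and it held with any 1 of the IKKa-AA and WT arrays left out (0.00148 to 0.0447). In the double mutants Amph read 2.39 and 2.17 and in bCATca 2.38 and 2.50, a difference of -0.17, and the allele differences with and without stabilised β-catenin differed (interaction adjusted p = 0.0323). WT alone thus stood above background. The gene passing was 1 of 12393 (0.00807%) in the lower direction and 0 (0.0%) in the higher. At an unadjusted p under 0.05, 639 genes were higher (5.16%) and 810 lower (6.54%). Both IKKa-AA arrays lay above both WT arrays for 2631 genes (21.2%) and below for 3055 (24.7%), and with a mean difference of at least 1 for 66 (0.533%) and 102 (0.823%).

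**Figure D1:**
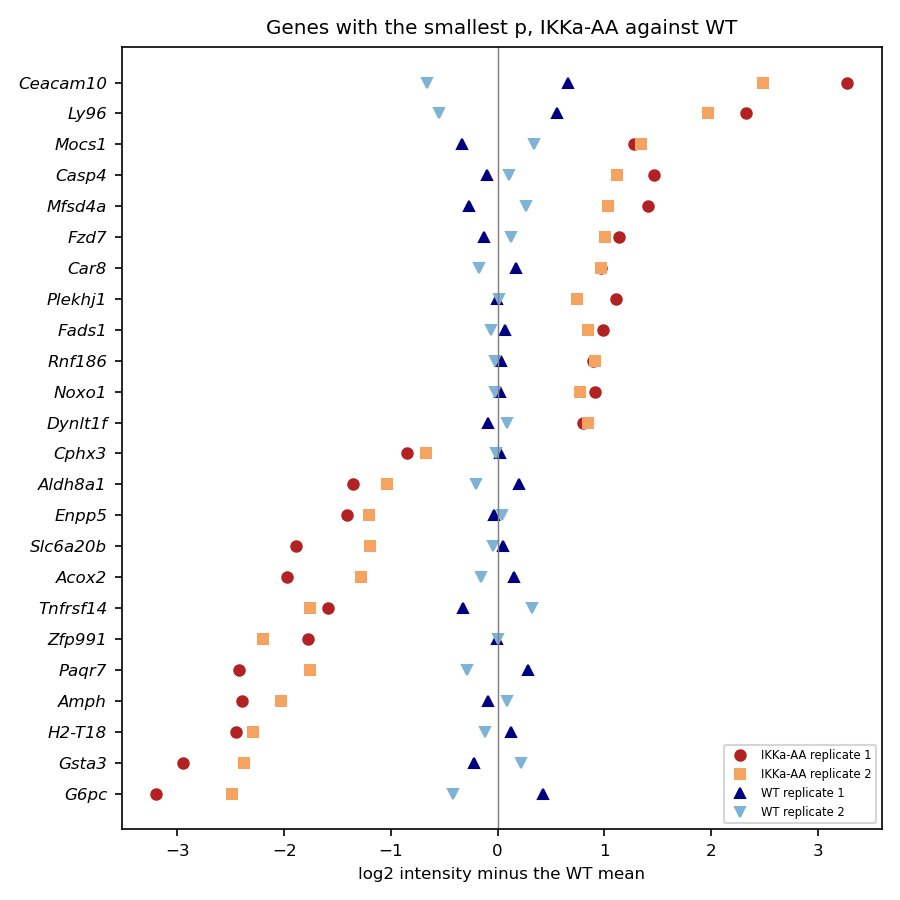
The 12 genes with the smallest p on each side among genes above background, each array as log2 intensity minus the WT mean, with IKKa-AA as circles and squares and WT as triangles. Amph, the only gene past the adjusted test, sits at -2.39 and -2.03 on the IKKa-AA arrays. In no gene shown do the groups overlap, which picking genes by small p on these arrays favours. Of all genes, 21.2% had both IKKa-AA arrays above both WT arrays and 24.7% below.

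No other gene passed, so the following are values without a call. Ly96 encodes MD-2, the co-receptor that lets TLR4 bind lipopolysaccharide, and read 6.98 and 6.63 in IKKa-AA and 5.21 and 4.11 in WT, a difference of 2.15 (SE 0.33, adjusted p = 0.147). The groups did not overlap, though the WT arrays lay 1.10 apart, and it was called without WT replicate 1. Casp4 encodes caspase-11, the mouse sensor of cytosolic lipopolysaccharide, and read 8.46 and 8.11 in IKKa-AA and 6.90 and 7.10 in WT (1.29, SE 0.18, adjusted p = 0.147). Ceacam10, a secreted member of the CEA family, had the largest of the 12 higher differences. It read 9.16 and 8.37 in IKKa-AA and 6.55 and 5.23 in WT (2.88, SE 0.48, adjusted p = 0.192), and 2 of its 3 probe sets went that way. Fzd7, a Wnt receptor of stem cells, read 6.71 and 6.58 in IKKa-AA and 5.45 and 5.70 in WT (1.07, SE 0.14, adjusted p = 0.125), the smallest p on the higher side, but only 1 of its 2 probe sets was higher. The remaining 8 were Fads1 (a fatty acid desaturase), Noxo1 (the organiser of the epithelial NADPH oxidase NOX1), Rnf186 (a ubiquitin ligase of the colon and gut epithelium), Dynlt1f, Mfsd4a, Car8, Plekhj1 and Mocs1, with differences between 0.82 for Dynlt1f and 1.31 for Mocs1.

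On the lower side H2-T18, the thymus leukaemia antigen, a class I-like molecule of gut epithelium that binds CD8αα, read 7.76 and 7.91 in IKKa-AA and 10.33 and 10.09 in WT (-2.37, SE 0.26, adjusted p = 0.0871). Its replicates lay within 0.24 of each other in each group. Tnfrsf14, the herpesvirus entry mediator and a receptor for LIGHT and BTLA, read 4.94 and 4.77 in IKKa-AA and 6.21 and 6.85 in WT (-1.67, adjusted p = 0.147). G6pc, the catalytic subunit of glucose-6-phosphatase, read 6.57 and 7.27 in IKKa-AA and 10.18 and 9.34 in WT, 7.18-fold lower (-2.84, SE 0.41, adjusted p = 0.147). Paqr7, a membrane progesterone receptor, differed by -2.09 (SE 0.26, adjusted p = 0.0961) and Zfp991 by -1.98, and Zfp991 had 1 of 2 probe sets lower. Gsta3, a glutathione transferase, stood at 5.35 and 5.92 in IKKa-AA and 8.08 and 8.52 in WT (-2.66), and both its probe sets were lower. Enpp5, Slc6a20b, Aldh8a1, Acox2 and Cphx3 completed the 12, between -1.63 for Acox2 and -0.76 for Cphx3. Among the 12 on each side, Noxo1, Dynlt1f, Mocs1, H2-T18 and Enpp5 lie on chromosome 17. Rnf186, Car8, Zfp991, Paqr7 and Tnfrsf14 lie on chromosome 4, and the rest on other chromosomes. H2-T18 was read by 1 probe set only. The mice mixed 3 strain backgrounds, and the part of strain in these genes was not tested.

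The same allele was read a second time, in other arrays, by setting double mutants against bCATca. The 4 genes other than Amph with the smallest p on the lower side had differences between -0.18 and 0.30 there, and none of their interactions passed (adjusted p = 0.0537 to 0.0688). H2-T18 read 8.08 and 7.40 in double mutants and 8.12 and 7.51 in bCATca (-0.08), Paqr7 differed by -0.04, Zfp991 by -0.18 and Enpp5 by 0.30. The bCATca arrays, with normal IKKα, read these genes near the IKKa-AA arrays, Paqr7 at 7.03 and 6.87 and Enpp5 at 5.96 and 5.71. They also read G6pc (6.94 and 6.57), Casp4 (8.11 and 8.40) and Fads1 (8.65 and 8.49) near IKKa-AA. For such genes WT stood apart from the other groups, so the difference was not particular to the AA allele. Not all were alike, as bCATca read Mocs1 (6.23 and 6.12) nearer WT and Cphx3 (5.86 and 5.86) between WT and IKKa-AA. Among the higher genes Casp4 differed by 0.35 and Ly96 by 0.13 between double mutants and bCATca, with Ly96 at 6.79 and 6.70 in double mutants and 6.82 and 6.41 in bCATca. Acox2, a peroxisomal oxidase of bile acid and branched fatty acid breakdown, went the other way, with 6.69 and 7.01 in double mutants and 4.96 and 5.25 in bCATca (1.75, adjusted p = 0.021), against -1.63 between IKKa-AA and WT (interaction adjusted p = 0.0166). Fzd7 differed by -0.51 there, and its interaction was also called (-1.58, adjusted p = 0.0495). Across all genes 50 rose (0.403%) and 100 fell (0.807%) between double mutants and bCATca, and 11 were called in the interaction (0.0888%).

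Each IKKa-AA array was then read on its own. The fit without replicate 2 assumes that the lone replicate 1 varies like the other groups. It called 128 genes higher (1.03%) and 197 lower (1.59%), while the fit without replicate 1 called none higher (0.0%) and only Amph lower (0.00807%). These genes were chosen by their values on replicate 1, and the same WT arrays serve both replicates, so the medians are a description. The median difference from the WT mean over the 128 was 1.31 on replicate 1 and 0.47 on replicate 2, and over the 197 it was -1.65 on replicate 1 and -0.27 on replicate 2. Cubn, the vitamin B12 receptor cubilin, read 3.83 and 7.57 in IKKa-AA and 10.74 and 9.67 in WT. Cyp2c29, a cytochrome P450, read 4.04 and 9.20 in IKKa-AA and 9.87 and 10.98 in WT, so replicate 1 was close to background and replicate 2 below both WT arrays. Cd177 read 8.30 and 6.17 in IKKa-AA and 5.17 and 4.08 in WT. For some genes the 2 arrays fell on opposite sides of WT. Igha, the constant region of IgA, read 7.43 and 11.70 in IKKa-AA and 10.33 and 10.72 in WT, and Jchain, which joins IgA dimers, read 3.84 and 8.68 in IKKa-AA and 7.08 and 7.34 in WT. Plet1, an epithelial surface protein, read 8.85 and 4.48 in IKKa-AA and 4.34 and 3.96 in WT, so that both arrays lay above WT but replicate 2 only just.

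**Figure D2:**
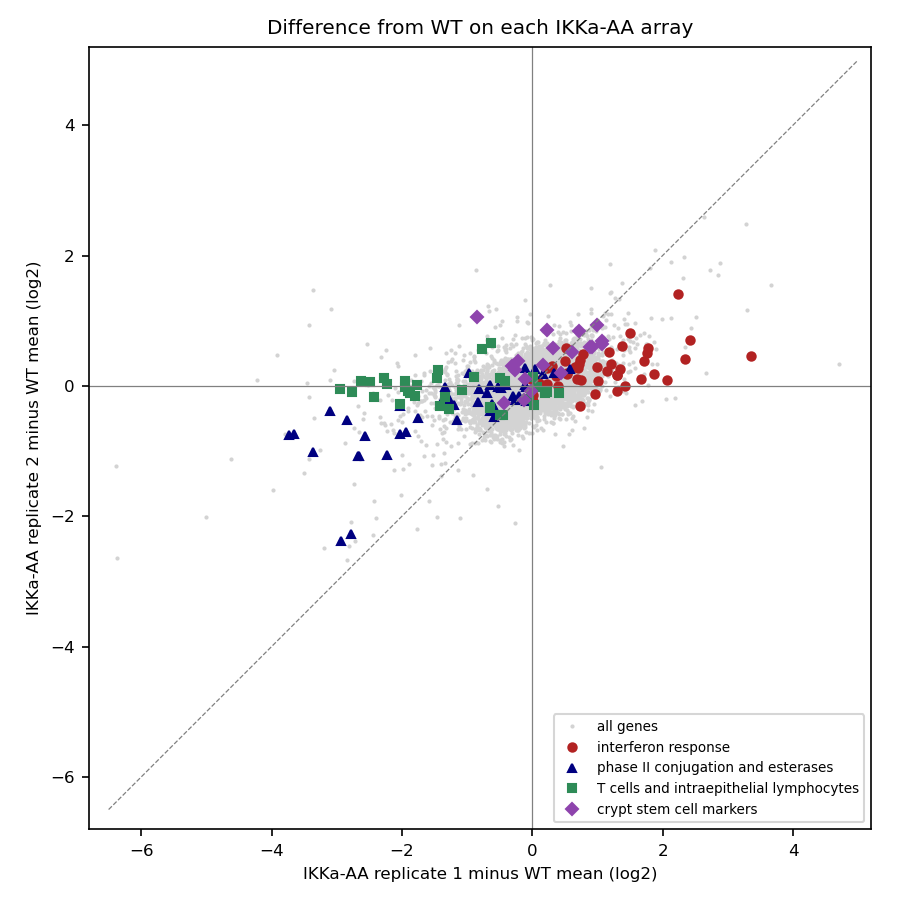
Each gene's log2 difference from the WT mean on IKKa-AA replicate 1 (horizontal) and replicate 2 (vertical), with 4 gene lists in colour and a dashed line of equal differences. Phase II genes reach further from 0 on replicate 1 (median -0.82) than on replicate 2 (median -0.24), and T cell genes lie at a median of -1.31 on replicate 1 and -0.07 on replicate 2.

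Gene lists were described by how many members lay outside WT, against 21.2% of all genes above and 24.7% below, and by their medians, against -0.01 for all genes. Interferon response genes stood higher in IKKa-AA. Of 45 measured, 27 had both IKKa-AA arrays above both WT arrays and none had both below. At an unadjusted p under 0.05, 15 were higher and none lower, against 5.16% and 6.54% of all genes, and none passed the adjusted test. The median difference from WT was 0.57 in IKKa-AA. Set against the same WT arrays, bCATca, with normal IKKα, had a median of 0.61, so the rise over WT was not particular to the AA allele. The list median was 0.97 on replicate 1 and 0.23 on replicate 2. Rsad2, the antiviral protein viperin, read 9.48 and 8.64 in IKKa-AA and 7.32 and 7.15 in WT (1.82, SE 0.45, adjusted p = 0.306). Zbp1, a sensor of Z-form nucleic acid, read 9.10 and 8.41 in IKKa-AA and 7.50 and 7.70 in WT (1.16, SE 0.22, adjusted p = 0.236). Both genes were above WT on each array. Oasl2, of the oligoadenylate synthetase family, read 9.81 and 9.04 in IKKa-AA and 8.64 and 8.22 in WT, and Sp100, a nuclear body protein, 7.06 and 7.13 in IKKa-AA and 6.65 and 6.44 in WT. Bst2, the virus-tethering protein tetherin, read 8.31 and 6.37 in IKKa-AA and 6.11 and 5.81 in WT, and Stat2, the signalling factor of type I interferon, 6.94 and 6.08 in IKKa-AA and 5.84 and 5.62 in WT. For these 2 genes replicate 2 lay just outside WT. Iigp1, an immunity-related GTPase, was at background on 3 of the 4 arrays, with 6.83 and 3.94 in IKKa-AA and 3.73 and 3.23 in WT.

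The interferon list was also higher in double mutants than in bCATca, which are other arrays. There 39 of 45 members had both double mutant arrays above both bCATca arrays, against 22.6% of all genes, and none had both below, against 24.2%. The median difference was 1.00, and 6 members rose by the adjusted test, against 0.403% of all genes. Oas2 rose by 2.06 (adjusted p = 0.0453), Ifi27l2a by 1.99 (adjusted p = 0.0249), Oas3 by 1.88 (adjusted p = 0.03), Oasl2 by 1.48 (adjusted p = 0.0453), Mx1 by 1.39 (adjusted p = 0.0271) and Sp100 by 1.03 (adjusted p = 0.021). Of these 6, Ifi27l2a read 7.18 and 6.13 in IKKa-AA and 6.30 and 6.58 in WT, so that the groups overlapped. T cell markers had medians of the opposite sign to this list. Their median was -1.31 on replicate 1 and -0.07 on replicate 2, and -0.68 between double mutants and bCATca. Of 36 measured, none lay above WT and 5 below, and 1 lay above bCATca and 23 below. Their log2 summed intensity was 11.17 and 10.85 in double mutants and 13.22 and 12.82 in bCATca, and 7 of the 36 were at background in IKKa-AA and WT alike. Ifng itself read 3.14 and 2.61 in IKKa-AA and 2.56 and 2.89 in WT, all at background. The part of lymphocyte content in the interferon list and the others was not tested. In such bulk samples fewer cells of a type and less RNA per cell cannot be told apart.

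**Figure D3:**
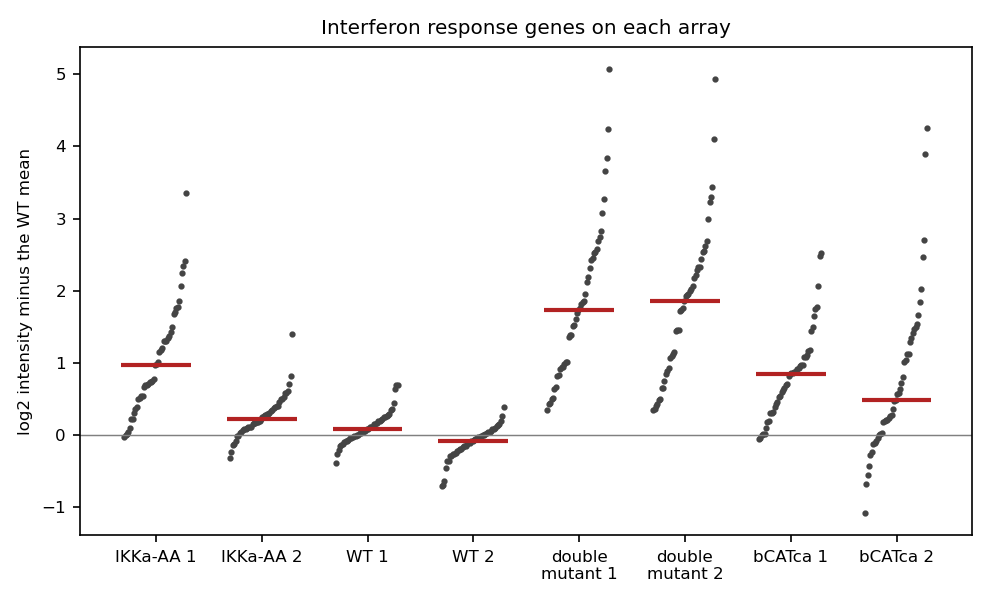
The 45 measured interferon response genes on each of the 8 arrays, 1 point per gene, as log2 intensity minus the WT mean, with the median as a bar. Both IKKa-AA medians lie above those of WT (0.97 and 0.23 as differences from the WT mean), replicate 1 further than replicate 2.

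Antigen presentation genes were read beside them. Of 15 class I genes, 7 lay above WT and 1 below, with a median of 0.41 on replicate 1 and 0.06 on replicate 2. Tap1, a subunit of the peptide transporter, read 9.67 and 8.47 in IKKa-AA and 8.17 and 7.61 in WT (1.18, adjusted p = 0.333), and 2 of its 4 probe sets were higher. Class II genes turned on WT replicate 2. H2-Eb1, a class II β chain, read 11.37 and 11.38 in IKKa-AA and 10.39 and 8.74 in WT (1.80, SE 0.42, adjusted p = 0.306). H2-Aa read 12.09 and 12.33 in IKKa-AA and 11.85 and 9.95 in WT, and Cd74, the invariant chain, 12.42 and 12.41 in IKKa-AA and 12.38 and 10.72 in WT. The list median was 0.64. It was 1.31 with WT replicate 1 left out and 0.03 with WT replicate 2 left out, and the WT arrays differed from each other by a median of 1.34.

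The kinase's own pathway showed small differences. Of 37 measured NF-κB and IKK pathway components, 17 lay above WT and 5 below, with medians of 0.13 and 0.09 on the IKKa-AA arrays. None passed the test. Ikbkb, which encodes the partner kinase IKKβ, read 8.39 and 8.40 in IKKa-AA and 8.22 and 8.09 in WT (0.24), and Rela, the p65 subunit, 8.18 and 8.25 in IKKa-AA and 8.0 and 8.07 in WT (0.17). Genes of the non-canonical route differed by -0.20 to 0.09. Nfkb2 read 6.30 and 6.53 in IKKa-AA and 6.45 and 6.58 in WT, Relb 7.43 and 7.99 in IKKa-AA and 7.54 and 7.70 in WT, and Map3k14, which encodes NIK, 4.92 and 4.98 in IKKa-AA and 4.99 and 5.30 in WT, so that the groups overlapped for Nfkb2 and Relb. Nfkbiz, an atypical nuclear IκB, had the largest higher difference of the list, with 10.25 and 9.29 in IKKa-AA and 8.65 and 8.64 in WT (1.12, SE 0.30, adjusted p = 0.306).

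Of 41 NF-κB target genes 9 lay above WT and 9 below, with medians of -0.06 and 0.02 on the IKKa-AA arrays, and Nfkbia, the feedback inhibitor IκBα whose promoter is printed above, overlapped between 11.47 and 11.28 in IKKa-AA and 11.42 and 11.12 in WT. Ccl20, the chemokine of follicle epithelium, read 8.44 and 7.93 in IKKa-AA and 7.43 and 7.53 in WT (0.70, adjusted p = 0.358). The apoptosis inhibitor Bcl2 read 4.94 and 5.35 in IKKa-AA and 5.81 and 5.70 in WT (-0.61). Saa1, serum amyloid A1, read 5.40 and 2.92 in IKKa-AA and 2.84 and 2.61 in WT, so replicate 1 alone was off background. Of 14 non-canonical targets 3 lay above WT and 3 below, with medians of -0.06 and 0.04, and 6 were at background in both groups. The lipopolysaccharide and inflammasome list had 14 of 29 members above WT and 6 below, with medians of 0.22 and 0.13. Beside Ly96 and Casp4 it held Cd14, the lipopolysaccharide receptor, at 7.32 and 6.93 in IKKa-AA and 6.31 and 6.35 in WT (0.80, adjusted p = 0.306), whereas Tlr4 was at background on all 4 arrays (2.85 to 3.22).

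Antimicrobial genes had 10 of 26 members above WT and 2 below, with medians of 0.33 and 0.15. Retnlb, the goblet cell product RELMβ, read 8.08 and 6.62 in IKKa-AA and 5.71 and 5.41 in WT (1.79, adjusted p = 0.345), and Reg3g, a bactericidal lectin, 13.32 and 12.93 in IKKa-AA and 12.81 and 12.09 in WT (0.67). The groups did not overlap in either. Other members went the other way on replicate 1, such as Lyz1 and Itln1, which read below both WT arrays there and are given with the Paneth cell genes.

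Genes of detoxification and enterocyte metabolism stood lower. Of 44 phase II conjugation enzymes and esterases, 27 lay below WT and 3 above, and 15 lay below by at least 1. At an unadjusted p under 0.05, 19 were lower and 1 higher, against 6.54% and 5.16% of all genes, and none passed the adjusted test. Their median was -0.82 on replicate 1 and -0.24 on replicate 2. Beside Gsta3, Gstm2 read 7.25 and 8.41 in IKKa-AA and 9.54 and 9.41 in WT (-1.65, SE 0.32, adjusted p = 0.236), and Gsta2 5.05 and 6.63 in IKKa-AA and 7.64 and 7.77 in WT (-1.86). Both glutathione transferases were lower on each IKKa-AA array, and further on replicate 1. Ces1d, a carboxylesterase, read 4.39 and 4.90 in IKKa-AA and 8.25 and 6.09 in WT (-2.52, SE 0.58, adjusted p = 0.306), with all 3 probe sets lower but 2.15 between the WT arrays. Of 34 cytochrome P450 genes 21 lay below WT and 2 above, 11 were lower and 1 higher at an unadjusted p under 0.05, and the medians were -0.94 and -0.24. Cyp2j9 read 3.82 and 5.23 in IKKa-AA and 5.86 and 6.03 in WT (-1.42), and Cyp4f13, of the fatty acid ω-hydroxylase family, 7.08 and 7.76 in IKKa-AA and 8.32 and 8.49 in WT (-0.98). The 1 higher P450 was Cyp51, an enzyme of cholesterol synthesis, with 9.52 and 8.64 in IKKa-AA and 7.93 and 8.62 in WT.

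In double mutants against bCATca, the medians of these lists had the other sign, 0.28 for phase II genes and 0.14 for P450 genes, with 19 phase II members above bCATca and 2 below. Set against the same WT arrays, which both comparisons share, bCATca had medians of -1.25 for phase II genes and -0.71 for P450 genes. Gsta3 itself read 5.87 and 5.08 in double mutants and 5.01 and 6.45 in bCATca, which overlap.

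Fatty acid oxidation and PPAR genes had 16 of 26 members below WT and none above, with medians of -0.41 and -0.19. Acaa2, a mitochondrial thiolase, read 9.77 and 10.62 in IKKa-AA and 11.24 and 11.03 in WT (-0.94, SE 0.28, adjusted p = 0.333), and Pdk4, the kinase that shuts pyruvate dehydrogenase in fasting, 3.70 and 6.70 in IKKa-AA and 9.71 and 7.71 in WT (-3.51, SE 1.02). The IKKa-AA arrays lay 3.0 apart for Pdk4 and the WT arrays 1.99. Brush border hydrolases and transporters had 13 of 27 below and 3 above, with medians of -0.41 and -0.07. The sugar transporter Slc5a4b read 6.64 and 9.03 in IKKa-AA and 10.71 and 10.54 in WT (-2.79, SE 0.63, adjusted p = 0.303). The vitamin C transporter Slc23a1 read 6.65 and 7.15 in IKKa-AA and 8.11 and 7.43 in WT (-0.86), and 6.45 and 6.89 in double mutants against 3.83 and 3.34 in bCATca, where it rose by 3.08 (adjusted p = 0.00897). Its interaction was called (3.95, adjusted p = 0.0166), but 1 of its 2 probe sets went this way between IKKa-AA and WT. In lipid absorption 9 of 21 lay below and 1 above, with medians of -0.38 and -0.02. Cd36, a fatty acid receptor, read 4.92 and 8.41 in IKKa-AA and 9.56 and 9.53 in WT. Against the same WT, bCATca had medians of -0.43 for fatty acid oxidation, -1.23 for brush border and -0.54 for lipid absorption genes. The lower medians were thus not particular to the AA allele. Between double mutants and bCATca the medians of these lists were 0.14, 0.75 and 0.35. Mitochondrial respiratory chain genes had 6 of 31 above and 6 below, with medians of 0.00 and -0.03.

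Crypt stem cell markers stood higher in IKKa-AA, with the larger median on replicate 2. Of 19, 11 lay above and 2 below, and the medians were 0.22 and 0.52. At an unadjusted p under 0.05, 8 were higher and 1 lower, against 5.16% and 6.54% of all genes. Prom1, which encodes CD133, read 9.31 and 9.43 in IKKa-AA and 8.43 and 8.74 in WT (0.79, SE 0.19, adjusted p = 0.306). Cdca7, a Myc target of crypt progenitors, read 8.60 and 8.29 in IKKa-AA and 7.66 and 7.71 in WT (0.76, SE 0.15, adjusted p = 0.245), and Lrig1, a brake on ErbB signalling, 7.92 and 7.64 in IKKa-AA and 7.08 and 6.99 in WT (0.74). All 3 were above WT on both arrays. Lgr5, the R-spondin receptor that defines crypt base stem cells, did not share this, with 4.81 and 6.71 in IKKa-AA on either side of 5.58 and 5.72 in WT. In bCATca, with normal IKKα, the list median over the same WT arrays was 1.13, against 0.31 in IKKa-AA. The rise over WT was thus not particular to the AA allele. In double mutants against bCATca the list median was -0.64, with 1 of 19 above and 12 below, and Prom1 fell by 1.06 (adjusted p = 0.0444). Wnt targets stood at medians of -0.01 and 0.09, with 6 of 27 above WT and 4 below. Ctnnb1, which encodes β-catenin, read 12.14 and 12.31 in IKKa-AA and 11.96 and 12.29 in WT.

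Proliferation genes differed by array. The mitosis list had a median of 0.80 on replicate 1 and -0.04 on replicate 2, with 5 of 35 above WT and none below, and ribosome biogenesis 0.57 and -0.02. Aurkb, the kinase of chromosome segregation, read 7.91 and 6.98 in IKKa-AA and 7.06 and 6.46 in WT, which overlap, and the WT arrays themselves differed by a list median of 0.38. DNA replication had 12 of 39 above and none below, with medians of 0.40 and 0.04, and Mcm3, a helicase subunit, read 8.44 and 7.94 in IKKa-AA and 7.73 and 7.41 in WT (0.62).

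**Figure D4:**
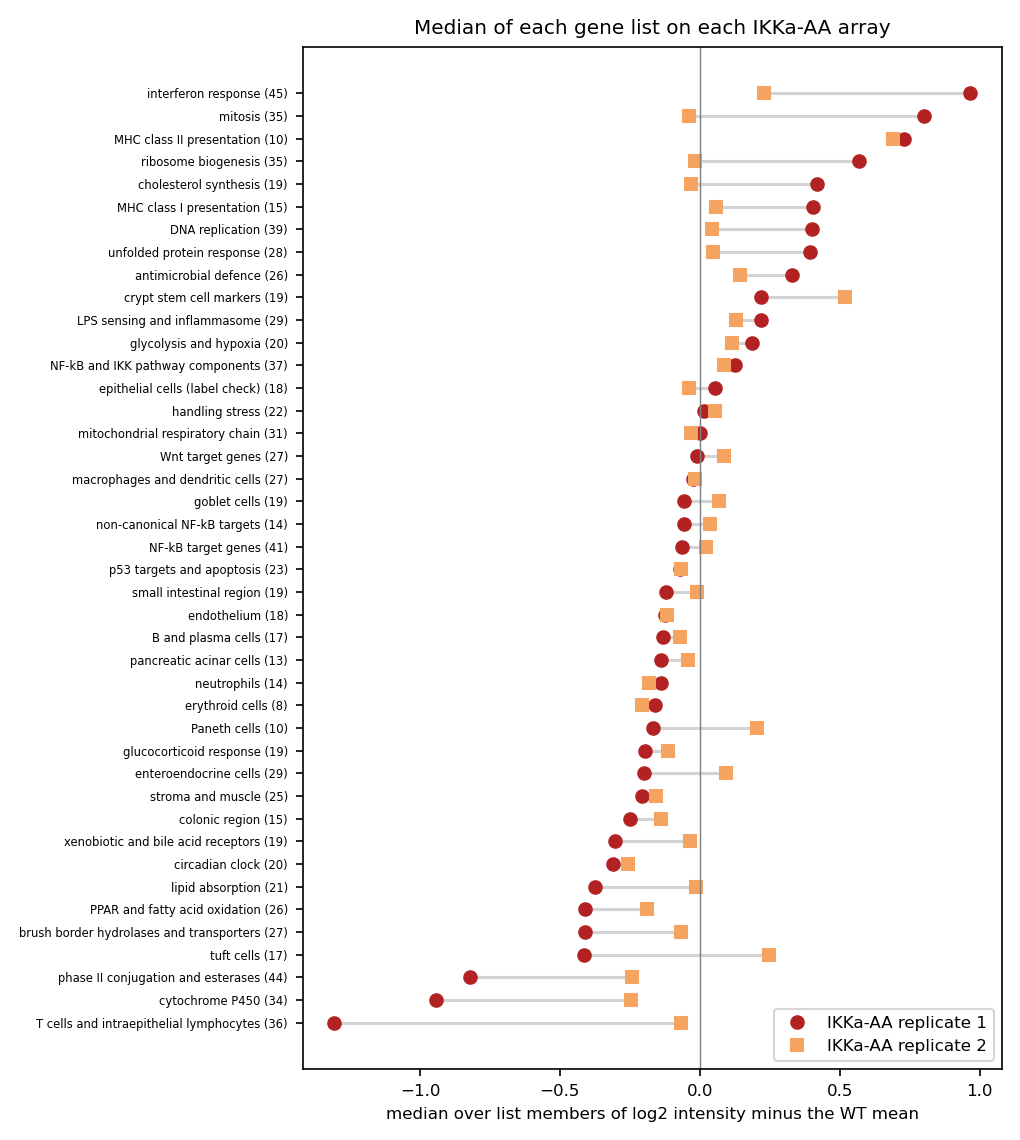
Median over the measured members of each list (number in brackets) of log2 intensity minus the WT mean, on IKKa-AA replicate 1 (circles) and replicate 2 (squares), ordered by replicate 1. Interferon response genes lie to the right on both arrays (0.97 and 0.23), phase II and P450 genes to the left on both, and T cell genes to the left at -1.31 on replicate 1 and at -0.07 on replicate 2.

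Clock genes follow the time of day and, like glucocorticoid targets, the state of the animal. Of 20 circadian clock genes, 12 lay below WT and 2 above, with medians of -0.31 and -0.26. Per2, a repressor of the clock, read 5.82 and 5.67 in IKKa-AA and 7.24 and 6.68 in WT (-1.21, SE 0.23, adjusted p = 0.236), and Bhlhe40 8.44 and 8.23 in IKKa-AA and 9.06 and 9.12 in WT (-0.75, adjusted p = 0.227). Nr1d1, the nuclear receptor REV-ERBα that peaks in opposite phase to Arntl, read 8.10 and 8.78 in IKKa-AA and 5.87 and 7.94 in WT (1.53). Per2 rose in double mutants against bCATca, with 6.59 and 6.95 in double mutants and 4.35 and 4.78 in bCATca (2.20, adjusted p = 0.0134), and its interaction was called (3.42, adjusted p = 0.0166). The list median there was 0.45. No label gives the hour at which cells were prepared. Of 19 glucocorticoid response genes 8 lay below WT and 1 above, with medians of -0.19 and -0.11. Sgk1, the serum- and glucocorticoid-regulated kinase, read 8.83 and 9.52 in IKKa-AA and 11.98 and 11.24 in WT (-2.43, SE 0.69, adjusted p = 0.325), and Tsc22d3, which encodes GILZ, 8.39 and 7.94 in IKKa-AA and 9.79 and 8.82 in WT (-1.14). Tsc22d3 rose by 1.76 (adjusted p = 0.0457) in double mutants against bCATca, where the list median was 0.46.

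Lymphocyte transcripts separated the IKKa-AA arrays from each other. Of 36 T cell and intraepithelial lymphocyte markers, 5 lay below WT on both arrays, against 24.7% of all genes. Their median difference from WT was -1.31 on replicate 1 and -0.07 on replicate 2. Cd3g, a subunit of the T cell receptor complex, read 5.23 and 8.14 in IKKa-AA and 8.50 and 7.87 in WT. Cd8a, whose product pairs as CD8αα on these cells, read 5.88 and 8.43 in IKKa-AA and 8.65 and 8.09 in WT, and Itgae, the integrin that binds E-cadherin, 5.06 and 7.73 in IKKa-AA and 8.08 and 7.57 in WT. Replicate 2 lay within the WT range for each of these 3 genes and replicate 1 below it. The double mutants read them lower than bCATca as well, Cd3g at 3.39 and 4.00 in double mutants and 7.37 and 6.82 in bCATca, and Ccl5 fell there by 4.14 (adjusted p = 0.018). Tyrobp, a signalling adaptor of natural killer and myeloid cells, read 5.39 and 8.20 in IKKa-AA and 8.20 and 8.06 in WT. The macrophage and dendritic cell list had medians of -0.03 and -0.02.

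Secretory lineages were read by list. Goblet cell genes stood at -0.06 and 0.07, with Muc4, a membrane mucin, at 6.69 and 5.94 in IKKa-AA and 5.07 and 5.36 in WT (1.10, adjusted p = 0.306). Enteroendocrine genes stood at -0.20 and 0.09, and tuft cell genes at -0.41 and 0.25. Paneth cell genes stood at -0.17 and 0.20, but their log2 summed intensity was 13.22 and 14.34 in IKKa-AA and 14.44 and 14.29 in WT, lowest on replicate 1. In the fit without replicate 2, 4 of the 10 fell (1.59% of all genes) and none rose. They were the lysozyme Lyz1 (12.37 and 13.31 in IKKa-AA and 13.28 and 13.20 in WT), the lectin Itln1 (10.44 and 12.05 in IKKa-AA and 11.85 and 11.81 in WT), Mptx1 (6.79 and 9.05 in IKKa-AA and 8.69 and 8.47 in WT) and Guca2b, uroguanylin (10.39 and 11.97 in IKKa-AA and 12.73 and 12.39 in WT). Of these, only Guca2b also lay below WT on replicate 2, and whether its signal came from Paneth cells was not tested. Sst, the hormone somatostatin, read 7.93 and 8.99 in IKKa-AA and 9.01 and 9.12 in WT. In the unfolded protein response list (0.39 and 0.05), Atf3, a stress-induced transcription factor, read 8.29 and 7.39 in IKKa-AA and 6.40 and 6.76 in WT (1.26, SE 0.34, adjusted p = 0.306). Hk2, a hexokinase in the glycolysis and hypoxia list (0.19 and 0.11), read 8.63 and 7.30 in IKKa-AA and 6.71 and 6.76 in WT (1.23).

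Further lists were read in the same way. Cholesterol synthesis had medians of 0.42 and -0.03, while the WT arrays differed from each other by -0.39 over that list, and Sqle, squalene epoxidase, read 10.17 and 8.98 in IKKa-AA and 8.22 and 9.01 in WT, which overlap. Of 23 p53 target and apoptosis genes 2 lay above WT and 8 below. Bid, a BH3-only protein, read 6.97 and 6.42 in IKKa-AA and 5.90 and 6.09 in WT (0.69), and Trp53inp1 5.82 and 7.39 in IKKa-AA and 7.96 and 7.75 in WT (-1.25). Receptors of xenobiotics and bile acids had 1 of 19 above and 4 below, with Nr0b2, the bile acid induced repressor SHP, at 4.57 and 6.03 in IKKa-AA and 6.71 and 6.70 in WT. Handling stress genes had 6 of 22 above and 2 below, with medians of 0.02 and 0.06. Stroma and muscle genes had none of 25 above and 14 below, against 21.2% and 24.7% of all genes. Of the 25, 10 had both group means at background, and the medians were -0.21 and -0.16. Endothelial genes had 2 of 18 above and 10 below, and neutrophil genes 1 of 14 above and 7 below, many of them at background.

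Some control probe sets moved with the comparison, above all those for bioC. The 4 probe sets for the spiked bacterial transcript bioC read 8.97 to 9.98 on the IKKa-AA arrays and 7.0 to 7.89 on the WT arrays, with differences of 1.92 to 2.03. Those for bioB differed by 0.28 to 0.59, those for bioD by 0.02 to 0.21 and those for cre by -0.06 to 0.11. The further spiked transcripts dap, lys, phe and thr differed by -0.29 to 0.29. The 18S ribosomal RNA probe sets were higher as well, by 0.87 to 1.22. One read 12.39 and 12.35 in IKKa-AA and 11.31 and 11.69 in WT, and another 11.41 and 11.43 against 9.66 and 10.74. The β-actin control probe sets differed by 0.46 to 0.62, and those for Gapdh by -0.07 to -0.03. WT replicate 1 read lowest of the 8 arrays on each 18S and β-actin probe set. Their part in the gene values was not tested.

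**Figure D5:**
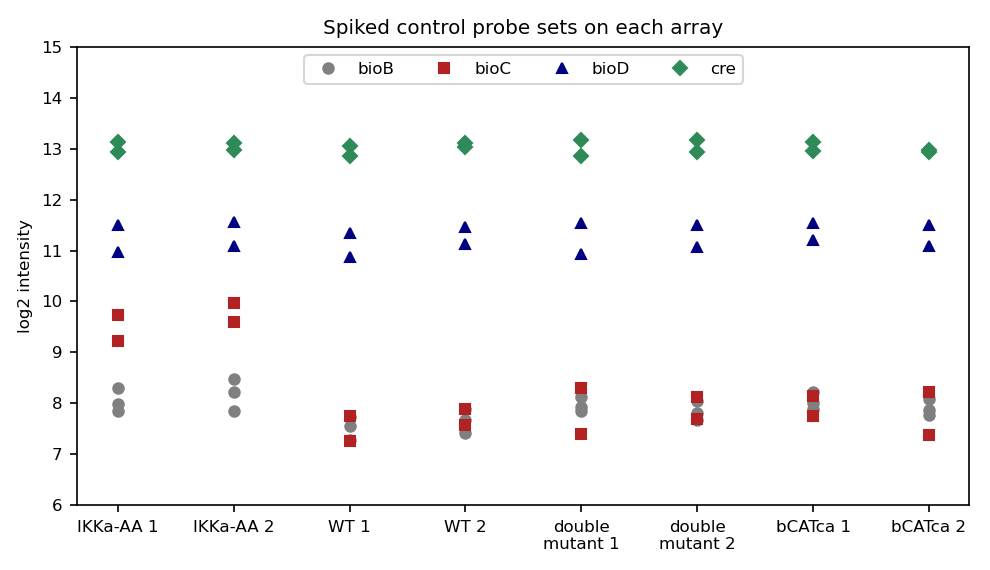
Log2 intensity of the spiked control probe sets bioB, bioC, bioD and cre (probe sets with r2 in their names, 1 colour and symbol per transcript) on each of the 8 arrays, 1 point per probe set. The bioC probe sets read 9.22 to 9.98 on the IKKa-AA arrays and at most 8.31 on the other 6 arrays.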

How the data were processed

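The study measured RNA of 8 samples on Affymetrix arrays, 4 groups of 2. The values deposited by the authors are linear intensities, 1 per probe set and array, made with RMA and affy per the submitters' processing notes, whose versions the sources used here do not give. RMA brings all arrays to a common distribution, so changes are relative to the bulk of the genes. The median intensity lay between 50.94 and 53.75. Here log2 was taken. Of 22690 probe sets, 20380 had 1 gene symbol, 691 several, 1555 none and 64 were controls. Symbols were updated through the Entrez ID for 20351, through an accession for 1, and kept for 28. The brightest probe set by its mean over the 8 arrays stood for each of 12393 genes, 4956 of which had more than 1.

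Group means of all 8 arrays were compared by limma 3.58.1, run in R 4.3.3 (lmFit and eBayes, residual degrees of freedom 4, prior 4.28), tested on simulated data beforehand. The threshold was an adjusted p of 0.05, with the Benjamini-Hochberg method applied to the whole set of genes. Values up to 4.03, the highest reading of Xist or the Y-linked genes where they are absent, were called background. Replicate numbers were not used to pair arrays. The gene encoding IKKα is not analysed here.

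The members, gene lists and tests were chosen with earlier results of these data known. Named by rule were the genes past the test, the 12 smallest p in each direction above background, up to 4 members of a list in the direction of its median, the 6 largest differences each way between the IKKa-AA arrays, the 6 largest changes each way without IKKa-AA replicate 2, and members of the class II, IKK pathway and lipopolysaccharide lists outside WT by at least 1. Other genes named were chosen after their values were seen. Promoters are from the RefSeq table of GRCm38.p6. Tables and figures were made with Python 3.11.15, pandas 2.3.3, numpy 2.4.6 and matplotlib 3.10.9. Alternatives were other normalizations, filters, probe set rules, model settings and each array left out in turn.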

Additional observations from a re-analysis of the deposited data

Results flagged for a closer look

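The signal of the spiked bacterial transcript bioC, which no comparison of genes uses, was higher on both IKKa-AA arrays than on both WT arrays by more than 1 on the log2 scale. The differences of its 4 probe sets, IKKa-AA minus WT, were 1.92, 1.94, 2.03 and 2.00, and the probe sets read 8.97 to 9.98 on the IKKa-AA arrays. No array of the double mutants or bCATca read above 8.31 for them.

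For 5 of the named genes the allele difference with stabilised β-catenin (double mutants minus bCATca) and the one without it (IKKa-AA minus WT) differed by the interaction test of limma. The interaction, the first difference minus the second, was 2.04 for Amph (adjusted p = 0.0323), -1.58 for Fzd7 (adjusted p = 0.0495), 3.37 for Acox2, 3.95 for Slc23a1 and 3.42 for Per2 (adjusted p = 0.0166 for each of the last 3). Amph was above background in WT alone. Fzd7 was higher in IKKa-AA than in WT and lower in double mutants than in bCATca, and Acox2, Slc23a1 and Per2 were lower in IKKa-AA than in WT and higher in double mutants than in bCATca.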

How the results depend on the processing

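Amph was the 1 gene past the test as fitted. The count was also 1 with quantile normalization, cyclic loess, array weights, the mean of all probe sets of a gene, the filter on the level of absent transcripts, and the replicate number as a block. The replicate block left Amph called (adjusted p = 0.046). The numbers were not shown to pair the arrays, since deviations of same-numbered arrays correlated at 0.15 between IKKa-AA and WT and at -0.448 to -0.006 between the other groups. The count was 0 in a fit of IKKa-AA and WT arrays only, 0 among genes above the median level, where Amph was not tested, and 0 with log2 of the value plus 16. It was 4 with trend and robust settings (Amph, H2-T18, Paqr7 and Zfp991, all lower) and 7 over every probe set, of which 4 were bioC controls. Leaving out 1 array gave 0 to 325. The 325 came without IKKa-AA replicate 2 (128 higher and 197 lower), against 1 without IKKa-AA replicate 1. There were 6 without WT replicate 1 (Amph, Cd74, H2-Aa, H2-DMa, H2-Eb1 and Ly96) and 7 without WT replicate 2 (Amph, Ces1d, Eif2s3y, Kdm5d, Uty, Rpgrip1 and Xist). Without any single array of the double mutants or bCATca the count was 0, in fits with fewer arrays to estimate the spread. At an unadjusted p under 0.05 the settings with a count of 0 held 665 to 1445 genes.

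For 203 named genes, 3649 of 3755 values under 19 settings kept their direction and side of the threshold, 81 came to pass, 6 no longer passed (all Amph) and 19, of 17 genes, changed sign. Over the fits that leave out 1 array, these genes ranged on both sides of 0. The value was lowest without IKKa-AA replicate 2 and above 0 without replicate 1 for Tyrobp (-2.74 to 0.070), Clps (-2.31 to 0.45), Rnase1 (-1.04 to 0.47), Jchain (-3.37 to 1.47), Cyp1a1 (-3.92 to 0.48), Igkv8-30 (-3.43 to 0.93), Cyp2c55 (-4.22 to 0.095) and Igha (-3.09 to 1.18). Teddm3 (-0.18 to 2.19) and Scd2 (-0.20 to 2.05) were lowest without IKKa-AA replicate 1, and Mmp7 (-0.14 to 0.58) without replicate 2. Tnfsf13b ranged over -0.67 to 0.072 and Hsph1 over -1.25 to 1.05, highest without IKKa-AA replicate 2 and, for Hsph1, at 0.40 without WT replicate 1. Ezr (-0.041 to 0.33), Eif2s3y (-0.15 to 5.39) and Ctnnb1 (-0.064 to 0.27) were lowest without WT replicate 1. The mean of all probe sets turned Ezr (-0.033) and Epb42 (0.035). Of 796 medians of the 42 lists, 702 moved by less than the spread between the IKKa-AA arrays and 94 by more. The neutrophil and erythroid lists had no member above the median level. The cause of these changes was not tested.

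With 2 arrays a group the spread rests on 4 residual degrees of freedom, shared over groups whose own spread differs. Sex differed within WT, and the spiked control bioC moved with the comparison. Differences that begin or end at background have no determined size, and probe sets of a gene can disagree.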
